A study of Mus musculus with 6 samples.

Results

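Mature olfactory sensory neurons adjust some of their genes to how often odorants excite them, and 5 such genes were followed here: S100a5, Pcp4l1, Lrrc3b, Rasgrp4 and Hist2h2be. They were chosen by symbol, and all 5 were found among the 53686 gene symbols of the count table and had enough reads to be among the 19267 genes tested. Poly-A RNA was taken from the main olfactory epithelium, the tissue of the nose where olfactory neurons sit among their progenitors, supporting cells and glands, in mice on the C57BL/6J background. The 2 groups, with 3 libraries each, were wild-type mice and hemizygous carriers of 5x21-OR1A1, a transgene for the human odorant receptor OR1A1. Age, housing and the promoter that drives the transgene are not stated in these sources. No label says whether the replicates are separate animals, so the p-values cover only the variation among these 6 libraries. The libraries held 27506217 to 35804712 counts, and Omp, the defining marker of mature olfactory neurons, was at 6655 to 12520 CPM (counts scaled to library size) in all of them. Wild-type library 1 had the lowest level of all 5 genes and of Omp among wild-type libraries. It also held 4816 counts of Xist, an RNA of female cells, as did transgenic libraries 2 and 3 (3640 and 2969), while the other 3 libraries held 1 to 4, so the sexes were unequally spread over the groups. Each group thus held libraries of both sexes, and so of more than 1 animal; whether the libraries of 1 sex within a group came from separate animals is not stated.

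An odorant that binds its receptor raises cyclic AMP in the neuron and opens channels that admit calcium. Over hours to days, the transcription of some genes follows this activity, so that blocking a nostril or silencing the channel lowers genes such as S100a5 in the neurons affected. Hist2h2be moves the other way: the histone variant H2BE that it encodes is abundant in seldom activated neurons and is known for its link to a shorter neuronal life.

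S100a5 encodes a small calcium-binding protein of the S100 family and is a widely used readout of odorant activity. It spans chr3:90608523-90611780 (GRCm38, plus strand, 3 exon blocks). Pcp4l1 encodes a short protein related to Purkinje cell protein 4, a calmodulin-binding protein, and lies at chr1:171173262-171196268 on the minus strand. The 250 bases before the start of each gene are shown in 5′ to 3′ order on the strand of the gene, from RefSeq on GRCm38.p6, since S100a5 is the gene that edgeR called and Pcp4l1 the next in abundance. Capitals mark a CCAAT box, read on either strand.
S100a5 (chr3:90608272-90608521): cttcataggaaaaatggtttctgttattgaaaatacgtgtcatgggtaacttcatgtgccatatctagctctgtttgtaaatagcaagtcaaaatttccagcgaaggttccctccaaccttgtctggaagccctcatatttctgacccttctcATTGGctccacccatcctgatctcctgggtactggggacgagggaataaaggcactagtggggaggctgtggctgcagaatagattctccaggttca
Pcp4l1 (chr1:171196269-171196518): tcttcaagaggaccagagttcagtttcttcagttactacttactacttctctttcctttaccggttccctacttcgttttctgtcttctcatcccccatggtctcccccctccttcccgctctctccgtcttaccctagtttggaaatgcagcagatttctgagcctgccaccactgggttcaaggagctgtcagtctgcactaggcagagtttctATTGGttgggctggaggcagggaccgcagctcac
Each window held 1 CCAAT match, both in the form ATTGG, beginning 97 bases before the start of S100a5 and 34 before that of Pcp4l1. CCAAT was present in 33.8% of 32851 promoter windows of this length. Neither window held the letters TGACGTCA (a cyclic AMP response element, 1.55% of windows), its half-site TGACG (17.8%), the palindromic EBF motif (0.779%), the homeodomain core TAATTA (4.84%) or TATAAA (12.4%), on either strand. The window of Lrrc3b held none of the 6 motifs. The half-site lies within the full element, so these 2 searches overlap.

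S100a5 was the only one of the 5 genes that edgeR called between the groups. Its level in CPM, read counts scaled to library size with the trimmed mean of M-values (TMM), was 1883, 2391 and 2795 in wild-type libraries 1, 2 and 3. In 5x21-OR1A1 libraries 1, 2 and 3 it was 1326, 1273 and 1437 CPM. All 3 transgenic libraries lay below the lowest wild-type library, as was so for 12.5% of all genes tested. The means were 2356 ± 456.9 and 1345 ± 83.4 CPM (SD, n = 3 each), so the transgenic level was 57.1% of the wild-type level. S100a5 fell by 0.81 on the log2 scale (SE 0.16, 95% confidence interval -1.17 to -0.45), with an edgeR adjusted p of 0.0399 over all genes. It was 1 of 5 genes called, where 2.71% of all tested genes were called in either direction, 2.2% were called lower and 0.519% higher. Fewer olfactory neurons and less of an RNA in each neuron cannot be told apart in bulk tissue. The call was lost without any 1 of wild-type libraries 2 and 3 and transgenic libraries 1, 2 and 3 (adjusted p of 0.0911, 0.0685, 0.168, 0.177 and 0.128), and the log2 value stayed between -0.95 and -0.67. With 1 library left out, edgeR called 2.41, 1.33 and 1.86% of genes lower (wild-type library 1, 2 or 3 left out) and 0.693, 0.769 and 0.692% (transgenic library 1, 2 or 3). At an adjusted p under 0.01 it called 0.737% of genes lower and 0 of the 5. With sex as a covariate the call was lost as well (-0.72, edgeR adjusted p = 0.1).

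**Figure D1:**
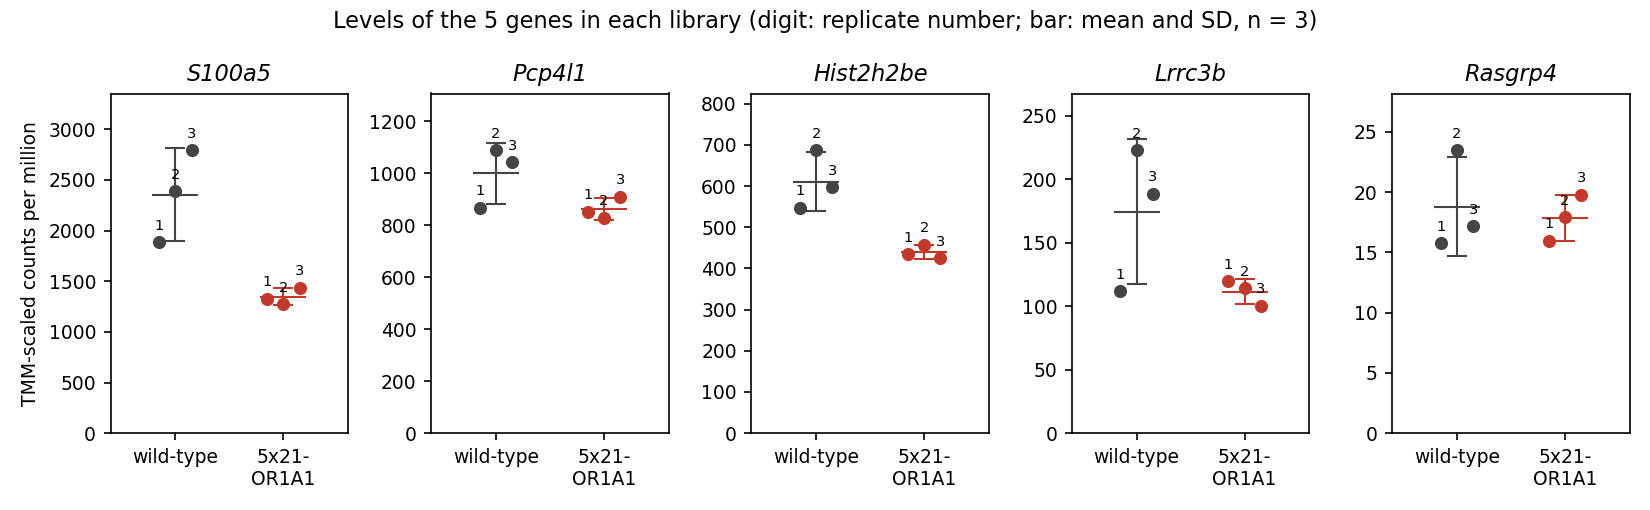
Levels of the 5 genes in TMM-scaled CPM (vertical axis), 1 panel a gene, with 1 point a library (digit: replicate number) and bars for the mean and SD of 3 libraries. The groups are apart for S100a5 and Hist2h2be and overlap for Pcp4l1, Lrrc3b and Rasgrp4, and wild-type library 1 is the lowest wild-type library in all 5 panels. Of all genes tested, 12.5% were apart in the same direction.

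Pcp4l1 did not pass the test. It was at 868 (wild-type library 1), 1089 and 1043 CPM in wild-type and at 851, 829 and 909 CPM in the transgenic ones. The groups overlapped, since transgenic library 3 lay above wild-type library 1. Its log2 fold change was -0.21 (SE 0.12, 95% confidence interval -0.49 to 0.06, edgeR adjusted p = 0.417). Counts of S100a5 per count of Pcp4l1 were 2.17, 2.20 and 2.68 in wild-type against 1.56, 1.54 and 1.58 in transgenic libraries. That ratio held apart by genotype while varying little within the transgenic group. It is given without a test.

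Lrrc3b encodes a membrane protein with leucine-rich repeats, on the minus strand at chr14:15357515-15438987. It was at 112, 223 and 189 CPM in wild-type libraries against 120, 114 and 100 CPM in transgenic ones. Wild-type library 1 lay inside the transgenic range, and the other wild-type libraries lay well above it. The log2 fold change was -0.65 (SE 0.22, 95% confidence interval -1.16 to -0.13), and the edgeR adjusted p of 0.195 missed the threshold. Without wild-type library 1 it was -0.89 with an adjusted p of 0.0167, and without wild-type library 2 it was -0.43 with an adjusted p of 0.378. The coefficient of variation among wild-type libraries was 32.6%, against 8.89% among transgenic ones. An antisense transcript, B230110C06Rik, shares 415 exonic bases with Lrrc3b. These libraries do not mark strand, so reads there cannot be assigned, although the antisense gene held only 213 counts over all 6 libraries.

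Rasgrp4 encodes an exchange factor that activates Ras proteins and is best known from mast cells. It lies on the plus strand at chr7:29134851-29153961 and was the least abundant of the 5 genes. Its levels were 15.8, 23.5 and 17.2 CPM in wild-type against 15.97, 17.9 and 19.8 CPM in transgenic libraries, and the groups overlapped. The log2 fold change was -0.07 (SE 0.16, 95% confidence interval -0.45 to 0.30, edgeR adjusted p = 0.859), and it turned to 0.12 without wild-type library 2. Fam98c, on the other strand, shares 978 exonic bases with Rasgrp4, or 15.4% of its exonic length. Fam98c was itself at 16.6 CPM in wild-type tissue, so part of the reads in the shared stretch may belong to either gene. Of 12 mast cell markers 7 were tested, and edgeR called 0 of them (1 at an unadjusted p under 0.05, Kit, and 1 by DESeq2). The defining mast cell proteases were near 0, with Cpa3 at 0.439, Cma1 at 0.805 and Mcpt4 at 0.767 CPM in wild-type tissue. The mast cell list without Hdc, Gata2 and Kit, which other cells of the tissue also express, summed to 2.56 to 5.43 CPM in wild-type and 3.13 to 4.58 CPM in transgenic libraries. No marker of the whole list was at 0 in all libraries, and 5 had too few counts to test. The neutrophil list without Ltf, a gene also made by glands, summed to 57.1 to 126 CPM in wild-type and 37.8 to 131 CPM in transgenic libraries, with S100a9 at 37.4 CPM in wild-type tissue. EdgeR, DESeq2 and limma-voom called 0 of 10 neutrophil markers tested, and 0 had an unadjusted p under 0.05. The part of these cells in the Rasgrp4 level was not tested.

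Hist2h2be is a single-exon gene at chr3:96221119-96223738 on the plus strand, 2620 bases long. Other H2B genes encode nearly the same protein, so the first 90 coding bases are shown beside those of Hist1h2bc, the most abundant other H2B gene in wild-type tissue, from GENCODE transcripts. Capitals mark the bases that differ.
Hist2h2be (chr3:96221166-96221255): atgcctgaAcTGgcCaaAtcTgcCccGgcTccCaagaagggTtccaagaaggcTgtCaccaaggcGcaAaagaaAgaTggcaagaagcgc
Hist1h2bc (chr13:23684232-23684321): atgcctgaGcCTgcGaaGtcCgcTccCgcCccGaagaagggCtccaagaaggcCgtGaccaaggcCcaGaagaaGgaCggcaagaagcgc
The stretch shown holds 17 of the 48 differences over 378 coding bases, and the longest identical run is 39 bases. Of 2521 windows of 100 bases, the read length, 0 occurred in a transcript of another gene, and the same held for S100a5 and Pcp4l1. Of the windows of Lrrc3b 16.5% and of Rasgrp4 10.3% occurred in another gene on the opposite strand. For Lrrc3b that gene was B230110C06Rik, and for Rasgrp4 they were Fam98c and Gm16282, which had no count in any library.

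Hist2h2be, the gene that activity lowers, did not pass in edgeR, and was at 547, 687 and 598 CPM in wild-type against 434, 458 and 425 CPM in transgenic libraries. The groups did not overlap, with transgenic libraries lower, as was so for 12.5% of all genes tested. The means were 610.6 ± 71.2 and 439.1 ± 16.7 CPM (SD, n = 3 each), with a log2 fold change of -0.48 (SE 0.11, 95% confidence interval -0.73 to -0.22). The edgeR adjusted p was 0.0736 while limma-voom gave 0.0495 and DESeq2 0.000302. DESeq2 called 3 of the 5 genes lower (S100a5, Hist2h2be and Lrrc3b), where it called 4.53% of genes lower, and limma-voom called 2, S100a5 and Hist2h2be, where it called 2.07% lower. The other H2B genes were far less abundant in these poly-A libraries, which capture few of the histone RNAs that lack a poly-A tail. Hist1h2bc was at 54.9 CPM in wild-type tissue with a log2 fold change of -0.33 (edgeR adjusted p = 0.217), and Hist3h2ba at 17.6 CPM with 0.37 (0.0814). EdgeR called 0 of the 6 H2B genes tested (2 at an unadjusted p under 0.05), limma-voom 0 and DESeq2 1, Hist3h2ba. Of 9 histone genes listed beside Hist2h2be on chromosome 3, 5 had no count in any library and 2 were tested, Hist2h3c2 (-0.16) and Hist2h4 (0.80), with edgeR adjusted p of 0.572 and 0.199.

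The counts of S100a5 per count of Hist2h2be set a gene that activity raises against one that it lowers. They were 3.44, 3.48 and 4.68 in wild-type against 3.05, 2.78 and 3.38 in transgenic libraries. The log2 ratio was 1.94 ± 0.25 and 1.61 ± 0.14 (SD, n = 3 each), a difference of -0.32 (SE 0.17), with all transgenic values below all wild-type values and no test. Without wild-type library 3 the difference was -0.18. Counts of Hist2h2be per count of Pcp4l1 were 0.630, 0.631 and 0.573 in wild-type against 0.510, 0.552 and 0.468 in transgenic libraries, also apart. The ratios to Lrrc3b overlapped between the groups. Counts of S100a5 per count of Lrrc3b were 16.9, 10.7 and 14.8 against 11.1, 11.2 and 14.3, and counts of Pcp4l1 per count of Lrrc3b 7.77, 4.89 and 5.53 against 7.12, 7.26 and 9.06. These were the 5 pairs of members compared, S100a5 with Hist2h2be included. None held Rasgrp4, and the share of all gene pairs whose ratios lay apart was not counted.

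The 5 genes were next set against markers of mature neurons. The 14 markers, led by Omp, the olfactory marker protein, summed to 20050 to 26310 CPM in wild-type and 13700 to 15130 CPM in transgenic libraries. EdgeR called 6 of them lower, where it called 2.2% of all genes tested lower. With sex as a covariate it called 0 of the 14, and with 1 library left out 0 to 9. The log2 fold changes of the markers had a median of -0.68, against 0.02 over all genes tested. All 14 were below 0, with Gng13 at one end (-0.81) and Slc17a6 at the other (-0.06). S100a5 lay near the lower end of this range, with 1 marker, Gng13, below it. Lrrc3b had 9 markers below it, Hist2h2be 11, and Pcp4l1 and Rasgrp4 13 each.

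**Figure D2:**
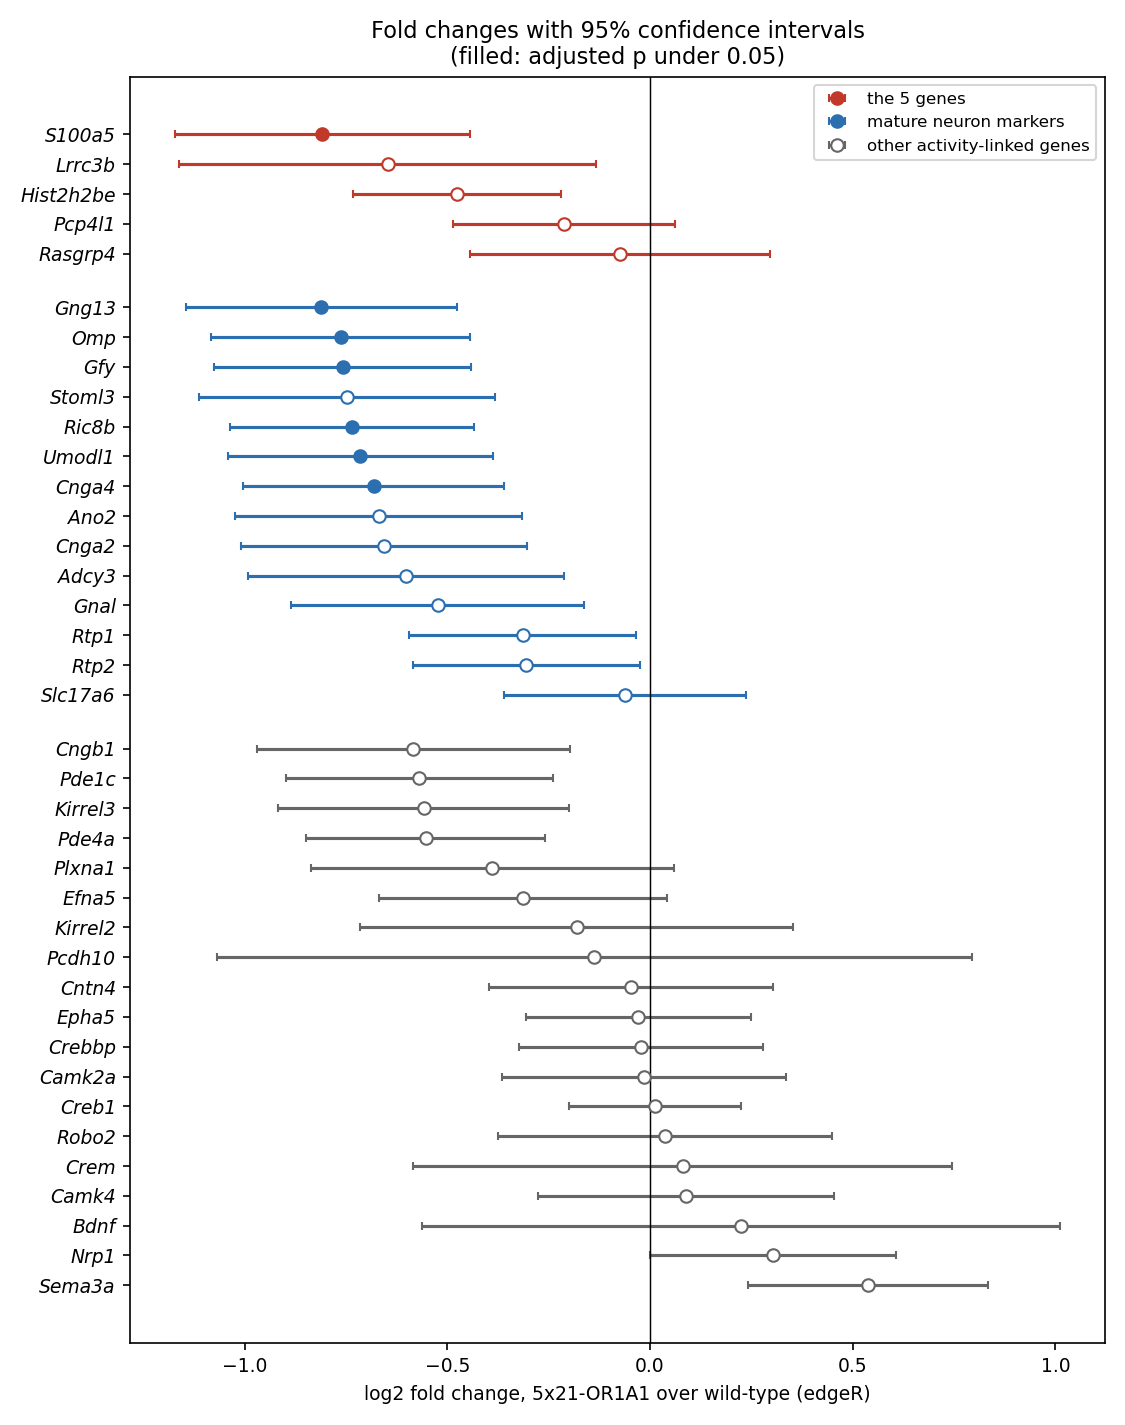
Log2 fold changes of 5x21-OR1A1 over wild-type (horizontal axis) with 95% confidence intervals for the 5 genes, 14 mature neuron markers and the 19 other activity-linked genes that are not among those markers, with filled points for an edgeR adjusted p under 0.05. S100a5 at -0.81 lies beside Gng13 at -0.81 and Omp at -0.76, whereas Pcp4l1 at -0.21 and Rasgrp4 at -0.07 lie beside the markers that differed least.

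Per 1000 counts of the 14 markers, S100a5 had 93.9, 90.9 and 119 counts in wild-type against 95.6, 84.2 and 105 in transgenic libraries. The groups overlapped, and the log2 difference was -0.09 (SE 0.15; two-sided exact permutation test, p = 0.7). Lrrc3b likewise overlapped, at 5.57, 8.47 and 8.04 against 8.62, 7.55 and 7.33, a difference of 0.11 (SE 0.20, exact p = 0.8).

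Pcp4l1 was higher relative to the markers in every transgenic library, at 43.3, 41.4 and 44.5 counts per 1000 in wild-type against 61.4, 54.8 and 66.4 in transgenic tissue. The log2 difference was 0.50 (SE 0.086; two-sided exact permutation test, p = 0.1). Rasgrp4 had 0.786, 0.892 and 0.732 against 1.15, 1.18 and 1.44, a difference of 0.65 (SE 0.13, exact p = 0.1). Hist2h2be had 27.3, 26.1 and 25.5 against 31.3, 30.3 and 31.1, a difference of 0.23 (SE 0.033, exact p = 0.1). In these 3 genes no library of 1 group lay within the range of the other, and an exact p of 0.1 is the smallest that 3 libraries against 3 allow. The share of all genes that lay apart on this ratio was not counted. The summed markers were themselves apart between the groups, so the separation cannot be read as particular to these 3 genes. The 3 differences kept their sign with Omp alone as the denominator (0.55, 0.70 and 0.28) and with the other 13 markers (0.44, 0.60 and 0.18). Against the mean log2 CPM of the markers, which weights each marker equally, they were 0.38, 0.53 and 0.11, with the groups still apart, and S100a5 was at -0.21 with the groups overlapping. With the markers in place of the library total as the scale of the fit, edgeR called Pcp4l1 (0.50, adjusted p = 0.0106) and Rasgrp4 (0.65, 0.00475) higher, but 76.2% of all genes were then called higher, and with Omp as the scale 79.1%. Hist2h2be (0.23) had an adjusted p of 0.114 in that fit. The median of all genes moved to 0.71 under that scale, and against it the 5 genes ranged from -0.805 to -0.063.

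**Figure D3:**
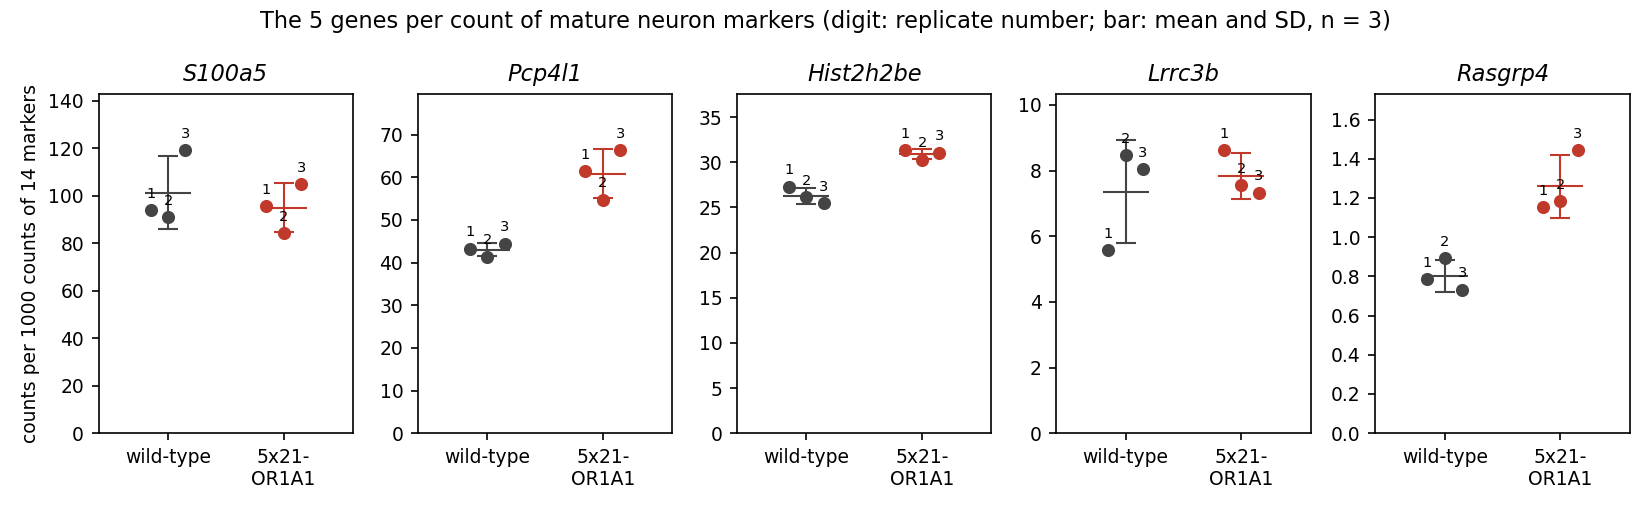
Counts of each of the 5 genes per 1000 summed counts of 14 mature neuron markers (vertical axis), 1 point a library with its replicate number and bars for the mean and SD of 3 libraries. The groups are apart, with transgenic libraries higher, for Pcp4l1, Hist2h2be and Rasgrp4, and overlap for S100a5 and Lrrc3b.

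Markers of less mature cells were counted in the same libraries. Of 12 immature neuron markers edgeR called 4 higher and 1 lower, with Gap43, a growth cone protein, at 107 CPM in wild-type against 183 CPM in transgenic tissue. The 1 called lower was Stmn4, at 226 CPM in wild-type against 139 CPM in transgenic tissue (log2 fold change -0.70, edgeR adjusted p = 0.0198). DESeq2 called 7 of the 12 markers higher and 1 lower, and edgeR with sex as a covariate 2 and 1. Of 14 progenitor markers 6 were called higher and 0 lower (12 and 0 by DESeq2, 3 and 0 with sex as a covariate), and their summed level was 863.8 to 991.4 CPM in wild-type and 1271 to 1348 CPM in transgenic libraries. Of 8 sustentacular cell markers, 6 horizontal basal cell, 9 macrophage and 7 ensheathing glia markers edgeR called 0 (3, 1, 1 and 0 at an unadjusted p under 0.05). DESeq2 called 3 sustentacular markers lower. Of 9 tested bulb and brain markers 2 were called lower, Slc1a2 and Eomes; Mbp was at 36.5 CPM in wild-type against 43.5 CPM in transgenic tissue, and Mog had no count in any library. The part of these shifts in the levels of the 5 genes was not tested.

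Other activity-linked genes of olfactory neurons were taken from a list of 24, of which all were tested and 5 are also among the mature markers. The list includes genes that carry or relay the odorant signal, so it is not only of genes whose levels follow activity. EdgeR called 1 lower, Cnga4, a subunit of the cyclic nucleotide-gated channel (log2 fold change -0.68, adjusted p = 0.0469), and 0 higher. The list median was -0.16, and 17 of the 24 lay below 0. Among the 19 genes that are not also mature markers the median was -0.03, and edgeR and limma-voom called 0 (6 had an unadjusted p under 0.05 in edgeR, 4 of them lower). DESeq2 called 5 of the 19, with Cngb1, Kirrel3, Pde1c and Pde4a lower and Sema3a higher. Sema3a, an axon guidance ligand, was at 10.1, 10.8 and 10.4 CPM in wild-type against 13.2, 17.6 and 14.7 CPM in transgenic libraries. Its groups were apart, with transgenic libraries higher, as was so for 11.4% of all genes tested. The log2 fold change of Sema3a was 0.54 (SE 0.13, edgeR adjusted p = 0.08). Kirrel2 and Kirrel3 encode adhesion molecules that sort olfactory axons, the first raised and the second lowered by activity. Kirrel2 was at 554, 1120 and 918 CPM in wild-type against 696, 808 and 782 CPM in transgenic libraries, with a log2 fold change of -0.18 (SE 0.23, edgeR adjusted p = 0.749). Kirrel3 was at 71.4, 95.2 and 63.6 against 50.9, 58.7 and 46.7 CPM, with a log2 fold change of -0.56 (SE 0.16, edgeR adjusted p = 0.121). Its groups were apart, with transgenic libraries lower, as was so for 12.5% of all genes tested. Epha5 (-0.03) and Efna5 (-0.31), a receptor and a ligand of the ephrin family, did not pass (edgeR adjusted p = 0.933 and 0.351). Of the transduction genes, Cnga2 (-0.66), Cngb1 (-0.58), Adcy3 (-0.60) and Gnal (-0.52) did not pass in edgeR (adjusted p of 0.0728, 0.129, 0.123 and 0.145). Camk4 (0.09), Creb1 (0.01) and Crebbp (-0.02), of the calcium-calmodulin and CREB branch, lay near 0 (edgeR adjusted p of 0.826, 0.964 and 0.956). Pde1c, also in the list, was at -0.57 (edgeR adjusted p = 0.0905).

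Immediate early genes, which answer to stimulation within minutes, gave 1 call among 17 tested, where edgeR called 2.2% of all genes tested lower. Ier2 fell by 0.83 on the log2 scale (edgeR adjusted p = 0.0486), from 84.5, 139 and 105 CPM in wild-type to 68.6, 59.0 and 57.4 CPM in transgenic libraries, and limma-voom called 0 of the list. With sex as a covariate edgeR called 0 of the list, and with 1 library left out 0 to 3. The list median was -0.69, against 0.02 over all genes tested. Its largest value, that of Egr1 (-2.65, edgeR adjusted p = 0.192), rested on wild-type libraries that ran from 7.21 to 133.5 CPM, with wild-type library 2 highest.

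Paralogues of the 5 genes were tested beside them. Of 12 tested paralogues edgeR and limma-voom called 0 (1 at an unadjusted p under 0.05 in edgeR) and DESeq2 1, with a median log2 fold change of 0.04. S100a6, which begins 1102 bases beyond S100a5, had a value of -0.31 (edgeR adjusted p = 0.489), S100a4 of 0.08 (0.896) and S100a1 of 0.004 (0.991). Pcp4, the namesake of Pcp4l1, was at 1.17 CPM in wild-type tissue (0.24, edgeR adjusted p = 0.889). Lrrc3, the paralogue with the largest value, was at 2.38 CPM (0.75, edgeR adjusted p = 0.0828), Rasgrp1 at 2.99 CPM (0.30, 0.470), and Rasgrp2 had no count in any library.

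Levels between the genes were compared per kilobase of exon. In wild-type tissue S100a5 stood highest at 5455 ± 1058 CPM per kb (SD, n = 3), followed by Pcp4l1 at 634 ± 73.9, Hist2h2be at 233 ± 27.2, Lrrc3b at 86.1 ± 28.1 and Rasgrp4 at 2.95 ± 0.647. The order was the same in transgenic tissue, at 3114, 547, 168, 55.0 and 2.81 CPM per kb. No 2 neighbours in this order overlapped in their ranges over libraries in either group. By CPM without length, S100a5 ranked 42 and Pcp4l1 83 of the 19267 genes.

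Across the 6 libraries, S100a5 followed Omp with a Pearson r of 0.97 in log2 CPM, Hist2h2be with 0.98, Lrrc3b with 0.87, Pcp4l1 with 0.847 and Rasgrp4 with 0.317. These values describe 6 libraries in 2 groups and carry the difference between the groups. Between members, r was highest for Pcp4l1 with Lrrc3b (0.908) and lowest for S100a5 with Rasgrp4 (0.269). With each group's mean removed, r was highest for Hist2h2be with Lrrc3b (0.882), and that of S100a5 with Hist2h2be went from 0.899 to 0.363. The r with Omp was then 0.954 for Lrrc3b, 0.849 for Pcp4l1, 0.826 for Hist2h2be, 0.797 for S100a5 and 0.607 for Rasgrp4. Of 12847 genes at 5 CPM or more, the closest profiles were those of Cetn3 (r = 0.997), Ociad1 and Dyrk4 for S100a5, of Trappc13 (0.9998), Fam187b and Unc119 for Pcp4l1, and of Kcnab2 (0.997), Diras1 and Fam131c for Hist2h2be. For Lrrc3b they were Mfsd1 (0.998), Fbxo45 and Trappc2. An r over 0.95 was reached by 143 genes for S100a5, 48 for Pcp4l1, 346 for Hist2h2be, 145 for Lrrc3b and 11 for Rasgrp4.

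The groups were also compared within each sex as read from Xist. Among libraries with Xist, S100a5 was at 1883 CPM in the wild-type library and at a mean of 1355 in the transgenic ones, a log2 ratio of -0.48, and among the others at 2593 and 1326 CPM, a ratio of -0.97. For Hist2h2be these ratios were -0.31 and -0.57, for Lrrc3b -0.06 and -0.78, for Pcp4l1 0.001 and -0.33, and for Rasgrp4 0.26 and -0.35. With sex as a covariate the log2 fold change of Lrrc3b was -0.42, and 0 of the 5 genes were called (3 at an unadjusted p under 0.05), where 1.23% of genes were called lower. Each subset has 1 library in 1 of its groups, so these ratios carry no test.

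**Figure D4:**
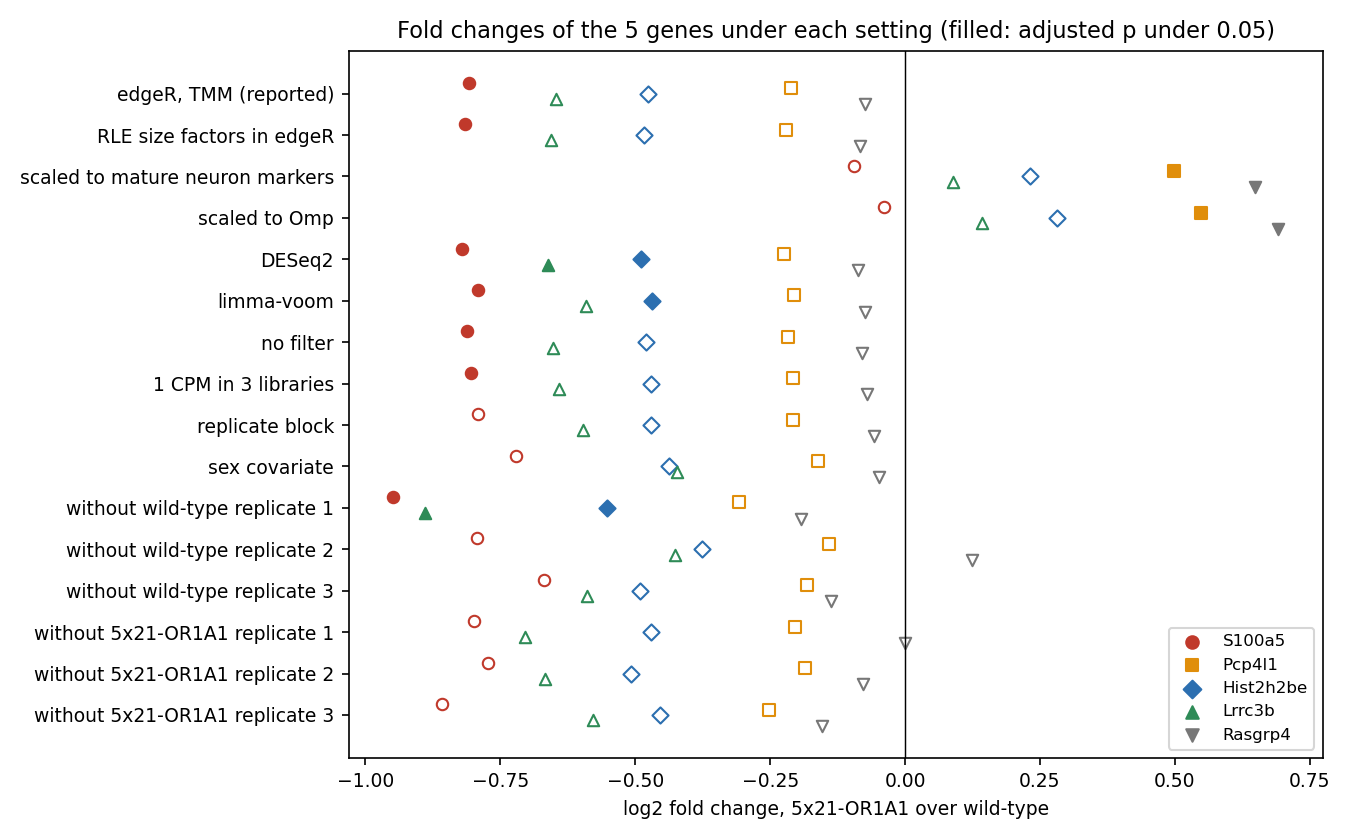
Log2 fold changes of the 5 genes (horizontal axis) under each setting of the analysis, 1 row a setting and 1 symbol a gene, with filled symbols for an adjusted p under 0.05. S100a5 stays below -0.66 in every row other than the scalings to mature neuron markers (-0.09) and to Omp (-0.04), which move the median of all genes to 0.71 and 0.76.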

How the data were processed

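Poly-A RNA of dissected mouse olfactory epithelium was sequenced in nonstranded TruSeq libraries as single-end reads of 100 bases, per the labels' protocols. The authors deposited raw read counts per gene symbol, without normalization, and 6 of 6 columns were matched to libraries by the labels. The submitters' processing notes list TopHat2 2.1.1, HTSeq 0.9.1 and GRCm38.p5. Annotation and counting options are not stated in these sources. Library totals ran from 27506217 to 35804712 counts. Replicates differed by far more than counting noise.

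The test was edgeR 4.0.16 under R 4.3.3 (TMM scaling, filterByExpr by group at 10 counts per gene and 15 in all, quasi-likelihood test on genotype, Benjamini-Hochberg adjustment over 19267 genes, called under 0.05). It was checked on simulated counts. A standard error is the log2 fold change over the root of F. Ratios to summed marker counts were compared by exact permutation. Coordinates and exon lengths came from GENCODE M21 (GRCm38), promoters from RefSeq (GRCm38.p6), which matched 3 of 5 genes; Hist2h2be and Rasgrp4 were not among them. Alternatives used DESeq2 1.42.0, limma 3.58.1 (voom), other scalings and filters, covariates and each library left out. The 5 genes and all lists were chosen with earlier results of these data known. Named genes were the 5, the activity and paralogue lists, up to 4 genes with the lowest p of each other list, defining cell markers and the 3 closest profiles, of which those of Rasgrp4 are not reported here. Xist, Slc17a6, Rasgrp4's overlapping gene Fam98c and Lrrc3b's B230110C06Rik were named after their values were seen.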

Additional observations from a re-analysis of the deposited data

How the results depend on the processing

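Scaling to the summed mature neuron markers gave log2 fold changes of -0.0944 for S100a5, 0.50 for Pcp4l1, 0.23 for Hist2h2be, 0.0895 for Lrrc3b and 0.65 for Rasgrp4, and scaling to Omp gave -0.0387, 0.55, 0.28, 0.14 and 0.69. Both scalings divide by markers that were lower in transgenic tissue, which lifts all genes. The numbers of genes called among the 5, the activity list, immediate early genes, mature markers and H2B genes, which were 1, 1, 1, 6 and 0, all lower, became 2, 12, 3, 3 and 5 with marker scaling, all higher, where 76.2% of all genes were called higher. They became 2, 13, 4, 3 and 5 with Omp, all higher but 1 immediate early gene, where 79.1% were called higher. The 2 genes called with marker scaling were Pcp4l1 and Rasgrp4, not S100a5.

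DESeq2 gave 3, 10, 2, 11 and 1, all lower but Sema3a and the H2B gene, with Hist2h2be (-0.49) and Lrrc3b (-0.66) called. Limma-voom called 2 of the 5 genes, Hist2h2be (-0.47) among them, and 0 immediate early genes. Without a filter 6 activity genes were called, all lower, where 1.82% of all genes were called lower. With sex as a covariate S100a5 was -0.72, and at an adjusted p under 0.01 it was -0.81, both not called; the first 4 counts were then 0, 0, 0 and 0. What moved these values was not tested.

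Same-numbered deviations from the group means correlated at -0.461, 0.124 and 0.0473, and no wild-type library correlated best with its own number. Transgenic library 2 did, at 0.124 against 0.121 with wild-type library 1. With 3 libraries in each group, this check cannot exclude that the replicate numbers pair the libraries. With the replicate number as a block S100a5 was -0.79 (adjusted p = 0.055), and 0 of the 5 genes, 4 activity genes and 0 immediate early genes were called, where 1.68% of all genes were called lower; 3 immature and 3 progenitor markers were then called higher. The block changed no other call of the 5 genes.

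Leaving out 1 library gave -0.95 to -0.67 for S100a5, -0.31 to -0.14 for Pcp4l1, -0.55 to -0.38 for Hist2h2be, -0.89 to -0.43 for Lrrc3b and -0.19 to 0.12 for Rasgrp4, whose sign turned without wild-type library 2. Hist2h2be was called (adjusted p = 0.0494) without wild-type library 1. Counts called ran from 0 to 3 of the 5 genes, 0 to 4 activity genes, 0 to 3 immediate early genes and 0 to 9 mature markers. The count of the 5 genes was 3 without wild-type library 1 and 0 without any 1 of the other 5 libraries.

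Per mature marker count, leaving out 1 library gave -0.16 to 0.03 for S100a5, 0.43 to 0.57 for Pcp4l1, 0.21 to 0.26 for Hist2h2be, -0.08 to 0.22 for Lrrc3b and 0.55 to 0.73 for Rasgrp4. S100a5 turned to 0.033 without wild-type library 3, Lrrc3b to -0.0792 without wild-type library 1 and, with the mean log2 CPM of the markers, to -0.0075. The balance of S100a5 against Hist2h2be ran from -0.40 to -0.18, the latter without wild-type library 3. Of the 3 closest profiles, deviations within groups shared 0 for S100a5, 2 for Pcp4l1, 0 for Hist2h2be, 1 for Lrrc3b and 1 for Rasgrp4.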
